A study of Gallus gallus with 12 samples.

Results

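The natriuretic peptide receptors *NPR1*, *NPR2* and *NPR3* were examined by RNA-seq in DT40, a chicken B cell line widely used for gene disruption. Members were found by gene symbol, and 2 of the 3 symbols each matched 1 gene of the 24356 in the annotation, *NPR2* (ENSGALG00000027630) and *NPR3* (ENSGALG00000017405). No gene carried the symbol *NPR1*, which is not analysed here. *NPR2* was chosen by its measured RNA level, which was higher in *timeless* and *fancj* cells than in wild type. Its values in those lines are therefore given as a description, without a test. The libraries came from 4 lines, with 3 separately grown cell populations each. In *timeless* cells the gene for a replication fork protection protein was disrupted with CRISPR-Cas9, and the sample labels give the same method for *ddx11* cells, in which the gene for the helicase DDX11 was disrupted. In *fancj* cells, an earlier gene-targeted line, *BRIP1* was disrupted, which encodes the helicase FANCJ. Wild type (WT) was unmodified DT40, and all lines were grown untreated in the same medium. The clone that was sequenced is not named for the mutants, so changes peculiar to a clone cannot be told apart from effects of the disrupted gene, and p-values measure only the spread between these populations.

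Natriuretic peptides are small hormones best known from the heart, blood vessels, kidney and skeleton. NPR1, also called guanylyl cyclase A, binds the atrial and B-type peptides, and NPR2, or guanylyl cyclase B, binds the C-type peptide. Both carry a guanylyl cyclase domain inside the cell and make cyclic GMP (cGMP) when the peptide binds. NPR3 lacks the cyclase, takes up and clears all of these peptides, and can inhibit adenylate cyclase through the G protein Gi. In mammals NPR2 is known for its part in cartilage growth and, in the mouse ovary, for holding oocytes in meiotic arrest. It is not a gene by which B cells are usually described.

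The depth and identity of the libraries limit what can be read from the receptors. Total expected counts, the estimated number of reads per gene summed over genes, were 13406041 to 50160512 per library with a median of 20125298. *TIMELESS* RNA was at 22.7 ± 1.45 TPM (a gene's share of all transcripts, allowing for gene length, on a total common to all libraries) in *timeless* cells and 41.1 ± 7.13 TPM in WT, and *DDX11* RNA was at 5.45 ± 1.37 TPM in *ddx11* cells and 12.9 ± 2.51 TPM in WT (SD, n = 3 each). *TIMELESS* RNA was also at 30.48, 21.29 and 8.88 TPM in the libraries labelled *fancj*, each below every WT library. Of all genes tested there, 23% did not overlap with WT in either direction. The quasi-likelihood test of edgeR called the drop in *timeless* (adjusted p = 0.0175) but not in the libraries labelled *fancj* (adjusted p = 0.117). *BRIP1* RNA was at 7.81, 8.47 and 1.23 TPM in the libraries labelled *fancj*, against 8.52, 5.16 and 6.59 TPM in WT. The first 2 of these lay within the WT range, so *BRIP1* RNA does not show the disruption in them. RNA level alone cannot decide the label, as *TIMELESS* and *DDX11* RNA also remained in their own mutants. Spearman's rho across genes between replicate 3 labelled *fancj* and the other two was 0.910 and 0.915, below the 0.951 to 0.989 seen between replicates of the remaining lines. All 10 B cell markers, among them *PAX5*, *CD79B* and *BTK*, reached at least 1 TPM in every line.

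*NPR2* RNA was higher in every mutant library than in any WT library. In *timeless* it was at 65.27, 64.51 and 74.33 TPM, in *ddx11* at 19.1, 27.96 and 24.39 TPM, and in the libraries labelled *fancj* at 73.32, 62.93 and 30.19 TPM. In WT it was at 5.67, 5.69 and 4.37 TPM. The 9 mutant libraries therefore did not overlap with the 3 WT libraries. For comparison, the share of all tested genes in which each library of the mutant exceeded each WT library was 11.8% for *timeless*, 10.7% for *ddx11* and 14.1% for the libraries labelled *fancj*.

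**Figure D1:**
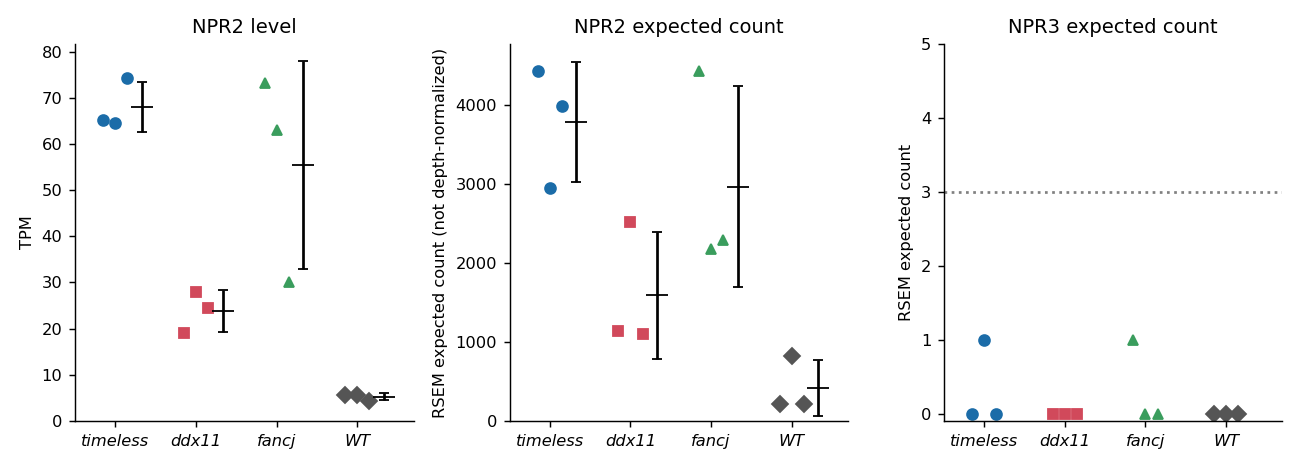
*NPR2* and *NPR3* by library in *timeless*, *ddx11*, *fancj* and WT, as *NPR2* TPM, *NPR2* expected counts and *NPR3* expected counts, with points for libraries, bars for mean ± SD of 3 in the *NPR2* panels, and a dotted line at the floor of 3 counts. *NPR2* lies between 19.1 and 74.33 TPM in the mutants and between 4.37 and 5.69 TPM in WT, while *NPR3* does not exceed 1 count.

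The mean *NPR2* level was 68.0 ± 5.46 TPM in *timeless*, 55.5 ± 22.5 TPM in the libraries labelled *fancj*, 23.8 ± 4.46 TPM in *ddx11* and 5.24 ± 0.756 TPM in WT (SD, n = 3 each). In this order, *timeless* and the libraries labelled *fancj* overlapped and do not differ beyond their spread. The lowest library labelled *fancj*, at 30.19 TPM, stood only just above the highest *ddx11* library, at 27.96 TPM. The 95% Poisson intervals of these 2 values were 29.0 to 31.4 TPM and 26.9 to 29.1 TPM, which overlap and cover counting error only. The coefficient of variation was 8.03% in *timeless*, 18.7% in *ddx11*, 40.6% in the libraries labelled *fancj* and 14.4% in WT. Replicate 3 labelled *fancj*, which also stood apart across genes, was the low one of its group.

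The expected counts show how many reads stand behind these levels. *NPR2* had 4434, 2947 and 3983 expected counts in *timeless*, 1145.04, 2522.96 and 1100 in *ddx11*, and 4431, 2182 and 2292 in the libraries labelled *fancj*. WT had 215, 824 and 212. The count of 824 comes from the deepest library, and its TPM was close to that of replicate 1. The Poisson intervals of the WT levels were 4.94 to 6.49, 5.31 to 6.09 and 3.8 to 5.0 TPM, so counting error was small beside the distance to the mutants.

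In rank within a library, *NPR2* exceeded 90.0% to 91.9% of all annotated genes in *timeless*, 74.5% to 80.6% in *ddx11*, 85.3% to 90.4% in the libraries labelled *fancj*, and 63.1% to 65.3% in WT. Its RNA was thus detected in WT, above most annotated genes, of which many had no reads. In bulk RNA, more cells with *NPR2* RNA and more *NPR2* RNA in each cell cannot be told apart.

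Fold changes were estimated with edgeR over all genes that averaged 1 TPM or more in either line compared. The log2 fold change of *NPR2* against WT was 3.76 (SE 0.20) in *timeless* and 3.37 (SE 0.26) in the libraries labelled *fancj*, or 13.6-fold and 10.4-fold. These were the contrasts by which the gene was chosen. In *ddx11*, which did not enter the choice, *NPR2* rose by 2.13 on the log2 scale, or 4.36-fold (SE 0.22, adjusted p = 0.00199 by the quasi-likelihood test of edgeR, Benjamini-Hochberg over all genes tested). The WT libraries of this test are the ones used in the other contrasts, by which the gene was chosen. A low WT level would favour both the choice and this rise, so the p-value is not independent of the choice. Of all genes tested in *ddx11*, 1.41% were called higher. A log2 fold change above that of *NPR2* was seen in *timeless* for 167 of 11653 genes, in *ddx11* for 159 of 11470, and in the libraries labelled *fancj* for 428 of 11824. Without replicate 3 labelled *fancj*, the value in that group was 3.53.

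The *NPR2* reads were assigned with little ambiguity. Its expected count lay within 0.005 of a whole number in 10 of the 12 libraries and within 0.04 in the rest, which means that almost no read was shared out between genes. The annotation holds 2 *NPR2* transcripts, and the abundance-weighted transcript length stayed between 4238 and 4244 bases over all libraries. In the RefSeq annotation of the GRCg7b genome, 0 annotated genes overlap *NPR2*.

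RNA of *NPR3*, the clearance receptor, was at or near 0 throughout. It had 1 count in *timeless* replicate 2 (0.02 TPM) and 1 count in replicate 1 labelled *fancj* (0.01 TPM), and 0 counts in the other 10 libraries. A count of 0 allows up to 3 counts, which for this gene corresponds to 0.0249 to 0.104 TPM depending on the library. The gene was below the limit of 1 TPM in every line and was not tested, and no fold change is given. A difference between lines was not detectable at this depth.

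Markers of other tissues were read beside *NPR2*, since the gene is better known outside B cells. Of 6 cartilage and heart markers 5 were matched, and their summed level was 4.16 to 32.7 TPM in *timeless*, 6.96 to 14.6 TPM in *ddx11*, 2.61 to 8.40 TPM in the libraries labelled *fancj* and 7.37 to 8.62 TPM in WT. Almost all of it was *SOX9*, while the cartilage proteoglycan *ACAN* and the heart factor *NKX2-5* were at 0 in all 12 libraries. The 5 myeloid markers summed to 0.16 to 1.70 TPM in *timeless*, 0.11 to 0.12 TPM in *ddx11*, 0.86 to 13.8 TPM in the libraries labelled *fancj* and 0.25 to 0.34 TPM in WT. Of 5 erythroid markers 2 were matched, with 0.26 to 1.42 TPM in *timeless*, 0.40 to 2.40 TPM in *ddx11*, 2.03 to 10.8 TPM in the libraries labelled *fancj* and 0 to 0.27 TPM in WT, all of it *HBBA*. The 5 fibroblast and endothelial markers summed to 6.44 to 8.25 TPM, 12.5 to 13.1 TPM and 1.60 to 24.0 TPM in these mutants in the same order and to 8.80 to 10.1 TPM in WT, with *CDH5* at 0 throughout. The 5 T cell markers, most of it *CD3D*, summed to 53.7 to 129 TPM in *timeless*, 62.8 to 104 TPM in *ddx11*, 61.7 to 92.7 TPM in the libraries labelled *fancj* and 159 to 222 TPM in WT. The part of these cell types in the *NPR2* level was not tested.

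The wider pathway was read from a list of 88 symbols for peptides and their processing, other guanylyl cyclases, cGMP targets, phosphodiesterases, the Gi and adenylate cyclase arm, and proteins that act on NPR2. Of these, 64 symbols matched 65 genes, and 33 genes reached 1 TPM in at least 1 comparison. In *timeless* 4 of 33 genes tested rose and 1 fell, which is 15.2% of them. There 14 had an unadjusted p under 0.05, DESeq2 called 10, and 16 did not overlap in TPM with WT. Of all genes tested there, 8.2% were altered, 4.31% higher and 3.89% lower, DESeq2 called 1499 of 11653, and 27.6% did not overlap. In *ddx11* 0 of 30 passed the edgeR test against 2.62% of all genes (1.41% higher and 1.21% lower). There 7 had an unadjusted p under 0.05, DESeq2 called 1 (547 of all 11470), and 6 did not overlap (14.4% of all genes). In the libraries labelled *fancj* 1 of 30 rose and 1 fell, or 6.67% against 4.28% of all genes (2.87% higher and 1.41% lower). There 3 had an unadjusted p under 0.05, DESeq2 called 3 (1319 of all 11824), and 4 did not overlap (23% of all genes). The share of all genes at an unadjusted p under 0.05 was not counted. With the replicate number as a block, both edgeR calls in the libraries labelled *fancj* were lost and *OSTN* alone was called. The median log2 fold change of the list was 0.05, 0.01 and -0.01 in *timeless*, *ddx11* and the libraries labelled *fancj*, against 0.01, 0.00 and 0.03 over all genes tested. Members went in both directions, so the median says little about single genes.

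**Figure D2:**
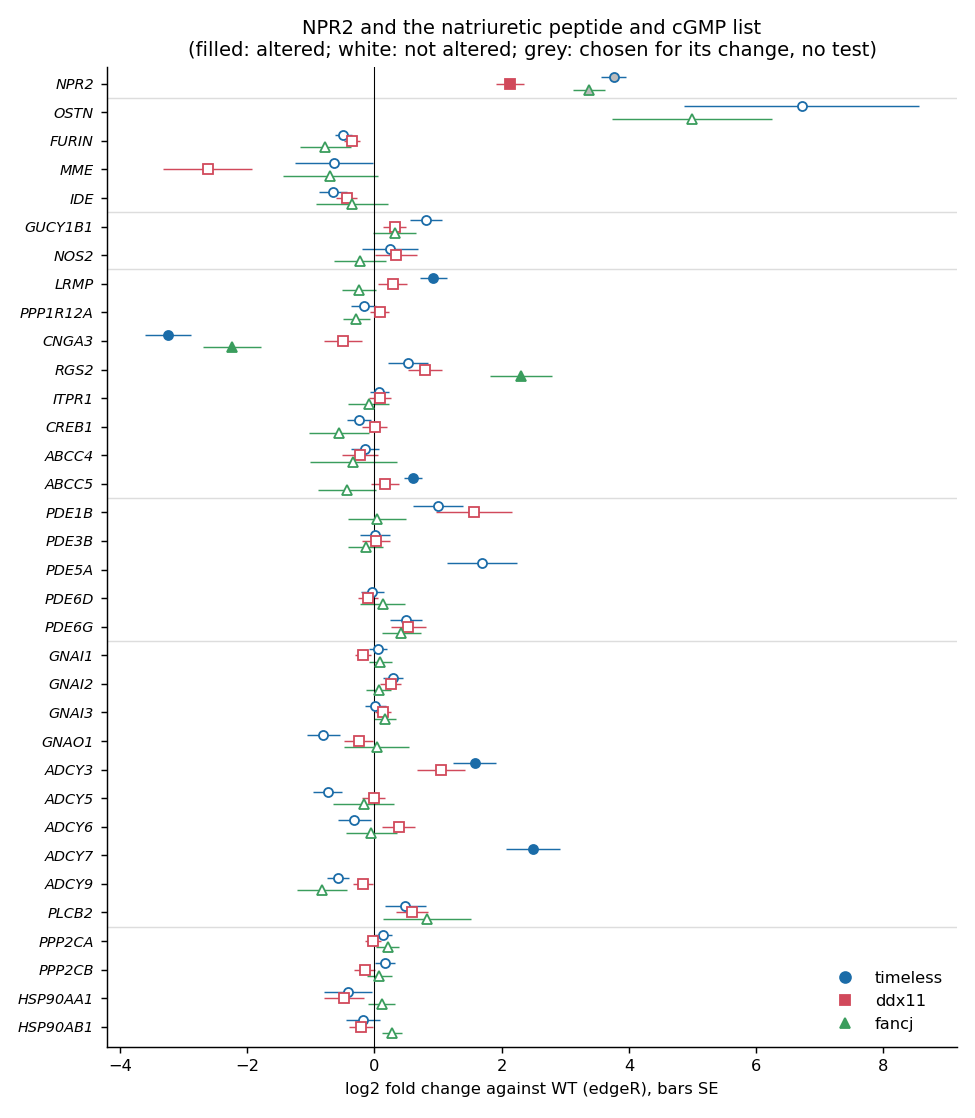
Log2 fold change against WT for *NPR2* and the 33 tested genes of the natriuretic peptide and cGMP list, in *timeless*, *ddx11* and *fancj*, with bars of 1 SE. Filled symbols mark an adjusted p under 0.05, white symbols are not altered, and grey *NPR2* symbols were chosen for their change and carry no test. *NPR2* is at 2.13 to 3.76, a place that its choice by its rise favours in *timeless* and *fancj*. Its test in *ddx11* uses the same WT libraries and is not independent of that choice. Above 2.13 also lie *OSTN* in *timeless* and *fancj*, *ADCY7* in *timeless* (2.49) and *RGS2* in *fancj* (2.31).

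Of the genes for peptides that the receptors bind, those matched had almost no RNA, apart from that of osteocrin. No gene matched the symbol *NPPB*, for the B-type peptide, so its level was not read. *NPPA*, which encodes atrial natriuretic peptide, had 1 count in *ddx11* replicate 2 and 1 in replicate 2 labelled *fancj*, and 0 elsewhere. Of 2 genes named *NPPC*, for the C-type peptide that activates NPR2, one was at 0 in every library. The other, ENSGALG00000054873, had at most 1 count in *timeless*, 1 to 4 in *ddx11*, 0 to 3 in the libraries labelled *fancj* and 0, 17 and 4 in WT, and its highest level was 1.55 TPM in WT replicate 2. Both stayed below the limit for a test.

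*OSTN* encodes osteocrin, a peptide that binds NPR3 and is known in mammals to shield natriuretic peptides from clearance. It was at 0.7, 72.31 and 1.72 TPM in *timeless*, 1.43, 0.77 and 0.42 TPM in *ddx11*, and 0.58, 8.24 and 10.25 TPM in the libraries labelled *fancj*, against 0.08, 0.39 and 0.07 TPM in WT. All mutant libraries were above all WT libraries, in *ddx11* only just. There replicate 3 had 0.42 TPM (6 counts), against 0.39 TPM (18 counts) in WT replicate 2. The share of all tested genes higher without overlap was 11.8% in *timeless* and 14.1% in the libraries labelled *fancj*. The *timeless* mean rested on replicate 2, while 2 of the 3 libraries labelled *fancj* were high. The log2 fold change was 6.71 (SE 1.84, adjusted p = 0.0628) in *timeless* and 5.0 (SE 1.26, adjusted p = 0.0804) in the libraries labelled *fancj*, from edgeR's quasi-likelihood test, and neither passed. Both passed with no TPM filter (adjusted p of 0.00641 and 0.0401, edgeR). The value in *timeless* also passed with all 12 libraries in 1 fit (0.0457) and with the replicate block (0.00106), and the libraries labelled *fancj* passed by DESeq2 (0.000254). Without *timeless* replicate 2 the value in *timeless* was 2.42. It passed without *timeless* replicate 1 (7.28, adjusted p = 0.0418) and without replicate 1 labelled *fancj* (5.52, adjusted p = 0.0131). With a block for the replicate number, the value in the libraries labelled *fancj* was 4.94 with an adjusted p of 0.0475. *OSTN* stayed below 1 TPM on average in *ddx11* and was not tested there.

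Of the genes for proteins that process or degrade the peptides, *FURIN*, *IDE* and *MME* were tested. They did not pass the edgeR test with all 6 libraries and the limit of 1 TPM in either line. *FURIN*, a proprotein convertase, averaged 24.8 TPM in *timeless*, 30.0 TPM in *ddx11*, 22.8 TPM in the libraries labelled *fancj* and 36.4 TPM in WT, and DESeq2 called it lower in *timeless* (-0.48, adjusted p = 0.0157). *IDE*, the insulin-degrading enzyme and the highest of this role in the mean over the lines, averaged 24.4, 31.0 and 33.8 TPM in these mutants in the same order and 39.5 TPM in WT. It passed in *timeless* when *timeless* replicate 1 was left out (-0.93, adjusted p = 0.0397, edgeR). *MME*, the peptidase neprilysin, averaged 0.440 TPM in *ddx11* and 2.45 TPM in WT, and its log2 fold change was -2.62 with an adjusted p of 0.116 from edgeR. *MME* passed there by DESeq2 (adjusted p = 0.0049), and by edgeR with no TPM filter (0.0146) or without WT replicate 1 (-3.07, adjusted p = 0.00878). WT was at 0.54, 3.3 and 3.52 TPM, so its replicate 1 lay within the *ddx11* range of 0.21 to 0.76 TPM. *CORIN*, the protease that activates the atrial peptide, did not exceed 0.25 TPM in any library and was not tested.

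Among the guanylyl cyclases, *NPR2* had the highest mean TPM of the 5 matched genes in every mutant, while in WT *GUCY1B1* did. *GUCY1B1*, the beta subunit of the soluble cyclase that nitric oxide activates, was at 11.82, 17.68 and 8.89 TPM in *timeless*, 10.33, 11.46 and 7.94 TPM in *ddx11*, and 15.58, 8.11 and 5.14 TPM in the libraries labelled *fancj*, against 7.73, 6.68 and 8.59 TPM in WT. Its log2 fold change was 0.81, 0.32 and 0.32, with adjusted p of 0.0979, 0.605 and 0.681 from edgeR, so it was not called in any line, while DESeq2 called it higher in *timeless* (0.82, adjusted p = 0.0339). The alpha subunits that pair with it were scarce, *GUCY1A1* with 1 count in all and *GUCY1A2* at 0.09 to 0.32 TPM. The receptor cyclase *GUCY2C*, known from the intestine, did not exceed 0.13 TPM.

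*NPR2* accordingly made up a larger share of the summed cyclase RNA in the mutants. The share restates the rise of *NPR2*, by which the gene was chosen in *timeless* and the libraries labelled *fancj*. By TPM, which is scaled to gene length, it took 84.4%, 78.3% and 89.0% of the sum over the 5 genes in *timeless*, 64.3%, 70.3% and 75.0% in *ddx11*, and 82.3%, 88.4% and 85.2% in the libraries labelled *fancj*. In WT it took 41.7%, 45.4% and 33.3%. In replicate 3 labelled *fancj*, where *NPR2* itself was low, *GUCY1B1* was low too and the share stayed with the others.

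**Figure D3:**
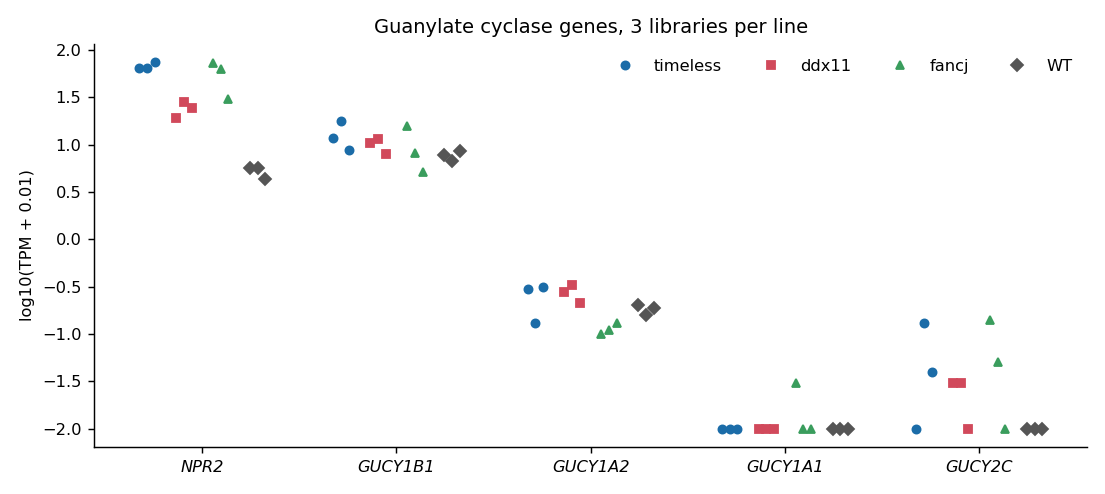
Level of the 5 matched guanylyl cyclase genes as log10(TPM + 0.01), 1 point per library, in *timeless*, *ddx11*, *fancj* and WT, where the bottom row is a TPM of 0. *NPR2* separates mutants (19.1 to 74.33 TPM) from WT (4.37 to 5.69 TPM), and *GUCY1B1* overlaps with WT in *ddx11* and *fancj* but lies just above it in *timeless*.

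Among targets of cGMP, 8 genes were tested, and *CNGA3* fell in *timeless* and in the libraries labelled *fancj*. It encodes a subunit of the cGMP-gated channel of cone photoreceptors, and stood at 0.46, 0.38 and 0.69 TPM in *timeless*, 5.73, 2.39 and 3.53 TPM in *ddx11*, and 1.83, 1.12 and 0.41 TPM in the libraries labelled *fancj*. WT held 5.07, 4.93 and 5.32 TPM. Neither *timeless* nor the libraries labelled *fancj* overlapped with WT, as was so in either direction for 27.6% and 23% of all genes tested in these comparisons, and for 14.4% in *ddx11*. It fell by 3.24 on the log2 scale in *timeless* (SE 0.36, adjusted p = 0.00187, edgeR), and the adjusted p was 0.00324 to 0.0124 when any 1 library was left out. It fell by 2.24 in the libraries labelled *fancj* (adjusted p = 0.0433, edgeR), but the adjusted p was 0.0584 once replicate number was blocked. That call was also lost without any 1 WT library or without replicate 2 labelled *fancj*, with adjusted p of 0.137 to 0.180.

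The other altered genes of this role rose. *LRMP*, a lymphoid membrane protein of the endoplasmic reticulum related to a substrate of cGMP-dependent kinase, was at 11.76, 12.23 and 13.59 TPM in *timeless* and 8.52, 6.81 and 5.43 TPM in WT. *ABCC5*, a transporter that can export cGMP, was at 23.91, 23.37 and 19.89 TPM in *timeless* and 14.58, 13.04 and 16.02 TPM in WT. For both genes *timeless* and WT did not overlap, as was so in either direction for 27.6% of all genes tested in *timeless*. The log2 fold changes were 0.93 (SE 0.21, adjusted p = 0.0335) for *LRMP* and 0.60 (adjusted p = 0.0392) for *ABCC5*, from edgeR. Both calls were thin. *ABCC5* lost its call without any 1 of the 6 libraries (adjusted p of 0.0594 to 0.173), and *LRMP* did so without any 1 library except *timeless* replicate 1 (0.0504 to 0.158).

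*RGS2*, a regulator of G protein signalling that cGMP-dependent kinase phosphorylates in mammals, rose in the libraries labelled *fancj*. There it was at 7.32, 25.59 and 15.74 TPM, against 3.63, 3.61 and 2.96 TPM in WT, while *timeless* had 4.58, 3.86 and 5.63 TPM and *ddx11* 7.23, 5.03 and 6.50 TPM. The log2 fold change was 2.31 (adjusted p = 0.0488, edgeR) and the call was lost with the replicate block (2.15, adjusted p = 0.0858). It was also lost without any 1 WT library, without replicate 2 or without replicate 3 labelled *fancj*, with adjusted p of 0.0569 to 0.217. With the block, the list held 1 altered gene in this comparison, *OSTN*, in place of 2.

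The cGMP-dependent kinase gene that was matched, *PRKG2*, did not exceed 0.07 TPM in any library. *PPP1R12A*, the targeting subunit of myosin phosphatase and the highest of the role in the mean over the lines, averaged 21.5 TPM in *timeless*, 28.4 TPM in *ddx11*, 21.2 TPM in the libraries labelled *fancj* and 25.7 TPM in WT, and was not called. Nor were the calcium channel *ITPR1*, the transcription factor *CREB1* and the transporter *ABCC4*.

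The phosphodiesterases, which break down cyclic nucleotides, held no altered gene among the 5 tested in *timeless* and the 4 tested in each other mutant. At an unadjusted p under 0.05 there were 2 in *timeless*, 1 in *ddx11* and 0 in the libraries labelled *fancj*, and DESeq2 called 0 in each. Over all genes tested, edgeR called 8.2%, 2.62% and 4.28% in these comparisons. DESeq2 called 1499 of 11653, 547 of 11470 and 1319 of 11824. With 4 or 5 genes, a count of 0 cannot be set against these shares. *PDE6D*, a carrier of prenylated proteins named for its place in the photoreceptor enzyme, was the highest, with means of 54.6, 57.3 and 58.5 TPM in *timeless*, *ddx11* and the libraries labelled *fancj*, against 58.7 TPM in WT. *PDE3B*, which cGMP inhibits, averaged 28.2, 30.7 and 27.1 TPM in the same order and 29.2 TPM in WT. *PDE5A*, the cGMP-specific enzyme, averaged 1.00 TPM in *timeless* and 0.297 TPM in WT, with a log2 fold change of 1.70 and an adjusted p of 0.108 from edgeR.

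In the Gi and adenylate cyclase arm, through which NPR3 can act, 2 of 10 genes tested rose in *timeless*. In *ddx11* 0 of 9 and in the libraries labelled *fancj* 0 of 8 passed. Of all genes tested, edgeR called 8.2%, 2.62% and 4.28% altered in these comparisons, with 4.31% higher in *timeless*. DESeq2 called 1499 of all 11653 genes in *timeless*. So few genes cannot be set against these shares. DESeq2 called 5 of the 10 in *timeless*, the 2 that rose and 3 that were lower, *GNAO1* (-0.80, adjusted p = 0.0452), *ADCY5* (-0.73, 0.0328) and *ADCY9* (-0.57, 0.0418). *ADCY3*, an adenylate cyclase, was at 2.44, 1.81 and 2.41 TPM in *timeless* and 0.66, 0.98 and 0.65 TPM in WT. *ADCY7*, a cyclase common in blood cells, was at 2.68, 2.14 and 1.01 TPM in *timeless* and 0.43, 0.33 and 0.31 TPM in WT. Their log2 fold changes were 1.58 (adjusted p = 0.0270) and 2.49 (adjusted p = 0.0113), from edgeR, at low levels on both sides. The *ADCY3* call was lost without any 1 library except *timeless* replicate 2 (adjusted p of 0.0587 to 0.129). *ADCY7* lost its call without WT replicate 2 or WT replicate 3 (0.0543 and 0.0579). *GNAI2*, the Gi alpha subunit with the highest level here, averaged 296, 315 and 256 TPM in *timeless*, *ddx11* and the libraries labelled *fancj* and 253 TPM in WT, and was not called.

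Genes for proteins known to act on the receptor itself were not called. NPR2 is active while phosphorylated, phosphatases switch it off, and the chaperone HSP90 is known to bind receptor cyclases. The 4 genes matched, *PPP2CA*, *PPP2CB*, *HSP90AA1* and *HSP90AB1*, were tested in each comparison and 0 passed with edgeR, with 0 at an unadjusted p under 0.05 and 0 called by DESeq2. Over all genes tested, edgeR called 8.2% in *timeless*, 2.62% in *ddx11* and 4.28% in the libraries labelled *fancj*. DESeq2 called 1499 of 11653, 547 of 11470 and 1319 of 11824 in the same order. A count of 0 among 4 genes cannot be set against these shares. *HSP90AA1* averaged 1393, 1486 and 2047 TPM in *timeless*, *ddx11* and the libraries labelled *fancj* and 1933 TPM in WT.

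Genes next to *NPR2* were read to see whether its neighbourhood moved with it. Gene order was taken from the GRCg7b annotation, and the 3 nearest genes on each side that matched the files were used. These were *TAF1C* (3 genes away), *TMEM8B* (5) and *CD72* (8) on one side, and *MSMP* (1), *RGP1* (2) and *GBA2* (3) on the other. Of these 6, 5 were tested and 0 passed the edgeR test in each comparison, with 1 at an unadjusted p under 0.05 and 1 called by DESeq2 in each. Over all genes tested, edgeR called 8.2% in *timeless*, 2.62% in *ddx11* and 4.28% in the libraries labelled *fancj*. DESeq2 called 1499 of 11653, 547 of 11470 and 1319 of 11824 in the same order. With 5 genes, these counts cannot be set against those shares. *MSMP*, the adjacent gene, was below the limit, with means of 0.190, 0.0400 and 0.0600 TPM in *timeless*, *ddx11* and the libraries labelled *fancj* and 0.0767 TPM in WT.

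*CD72*, a B cell surface receptor, was the gene that DESeq2 called. It was at 65.03, 17.77 and 22.57 TPM in *timeless*, 57.5, 19.07 and 36.33 TPM in *ddx11*, and 50.07, 32.7 and 28.07 TPM in the libraries labelled *fancj*, against 19.61, 12.48 and 16.38 TPM in WT. The *timeless* and *ddx11* groups overlapped with WT. Its log2 fold changes were 1.14, 1.11 and 1.22, with adjusted p of 0.152, 0.165 and 0.0581 from edgeR. The adjusted p was 0.0487 in the libraries labelled *fancj* with the replicate block, and 0.0489 without replicate 3 labelled *fancj*. It was 0.0212 in *ddx11* without *ddx11* replicate 2, and 0.0280 in *ddx11* with no TPM filter. DESeq2 gave adjusted p of 0.0495, 0.0192 and 0.00108 in *timeless*, *ddx11* and the libraries labelled *fancj*.

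*RGP1*, which helps activate the Golgi GTPase RAB6, averaged 14.0, 17.8 and 14.5 TPM in *timeless*, *ddx11* and the libraries labelled *fancj* and 16.5 TPM in WT. Its 3 *timeless* libraries were all below WT, and 27.6% of all genes tested in *timeless* were without overlap in either direction. *GBA2*, a glucosylceramidase outside the lysosome, averaged 25.0, 24.0 and 31.7 TPM in the same order and 24.7 TPM in WT. *TAF1C*, a subunit of the RNA polymerase I selectivity factor, averaged 23.4, 20.4 and 19.7 TPM and 20.5 TPM in WT. These 3 differed from WT by far less than *NPR2* did, which the choice of *NPR2* by its rise favours.

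**Figure D4:**
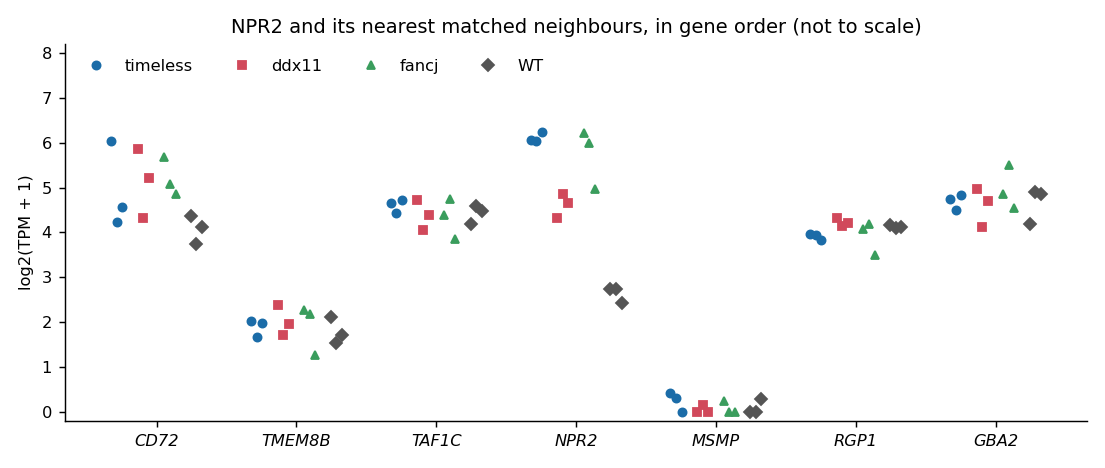
Level of *NPR2* and its 6 nearest matched neighbours as log2(TPM + 1), in gene order but not to scale, 1 point per library in *timeless*, *ddx11*, *fancj* and WT. *NPR2* is apart from WT in all mutants, *CD72* averages 35.1, 37.6 and 36.9 TPM in the mutants and 16.2 TPM in WT, and *RGP1* in *timeless* (13.25 to 14.54 TPM) lies just below WT (16.19 to 16.84 TPM).

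The neighbours of *NPR3* were *SUB1*, *MTMR12* and *PDZD2* on one side and *TARS*, *ADAMTS12* and *SLC45A2* on the other. 3 of them were expressed well enough to be tested, *SUB1*, *MTMR12* and *TARS*, although *NPR3* between them had at most 1 count in a library. *SUB1*, a transcriptional coactivator, rose in the libraries labelled *fancj*, to 38.0 ± 8.32 TPM against 13.4 ± 1.98 TPM in WT (SD, n = 3 each), by 1.57 on the log2 scale (SE 0.28, adjusted p = 0.0312, edgeR). The call was lost without any 1 WT library or without replicate 2 labelled *fancj* (adjusted p of 0.0957 to 0.156). In *timeless* its log2 fold change was 0.82 (adjusted p = 0.0777, edgeR), and it was called by DESeq2 (0.0190), with the replicate block (0.0283) and with no TPM filter (0.0495). edgeR called neither *MTMR12* nor *TARS* in any line.

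Finally, genes were ranked by the Pearson correlation of their log2(TPM + 1) with that of *NPR2* over the 12 libraries, among the 12319 genes that averaged 1 TPM or more in any line. All points share the 4 lines, so the ranking is a description and mostly reflects which line a library came from. Most like *NPR2* were *SCG3* (0.968), ENSGALG00000006009 (0.960), *TTYH2* (0.960), *ANXA5* (0.954) and *TTC8* (0.954). Most unlike were ENSGALG00000041611 (-0.975), *EPN3* (-0.965), *RGCC* (-0.960), *Pax3* (-0.955) and *CSMD2* (-0.942). Over all these genes the median was 0.00 and the 5th to 95th percentile -0.537 to 0.630.

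*SCG3*, a granin of secretory granules, was at 6.32, 6.36 and 4.87 TPM in *timeless*, 2.55, 3.41 and 3.07 TPM in *ddx11*, and 4.89, 4.36 and 3.47 TPM in the libraries labelled *fancj*, against 1.19, 0.63 and 1.04 TPM in WT. Like *NPR2*, it was intermediate in *ddx11*, which its choice by correlation with *NPR2* favours. *ANXA5*, a phospholipid-binding annexin and the more abundant, was at 132.1, 75.24 and 119.48 TPM in *timeless*, 53.05, 46.91 and 56.44 TPM in *ddx11*, and 178.86, 89.36 and 86.78 TPM in the libraries labelled *fancj*, against 16.94, 22.71 and 17.96 TPM in WT. *TTYH2*, a membrane protein of the tweety family, averaged 167, 92.8 and 166 TPM in these mutants in the same order and 55.3 TPM in WT. *TTC8*, a subunit of the BBSome of cilia, averaged 4.22, 1.75 and 2.83 TPM and 0.787 TPM in WT.

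The genes most unlike *NPR2* had the same graded order reversed, which follows from their choice by correlation. *EPN3*, an epsin of the endocytic machinery, was at 14.31, 13.92 and 13.92 TPM in *timeless*, 34.7, 44.83 and 39.89 TPM in *ddx11*, and 12.8, 18.87 and 16.07 TPM in the libraries labelled *fancj*, against 171.64, 156.93 and 137.44 TPM in WT. *RGCC*, a regulator of the cell cycle, averaged 17.8, 69.2 and 23.3 TPM in these mutants in the same order and 249.6 TPM in WT. The developmental transcription factor *Pax3* averaged 0.0567, 1.48 and 0.353 TPM, and 6.93 TPM in WT. *CSMD2*, a large membrane protein, averaged 0.0567, 0.5 and 0.1 TPM, and 1.53 TPM in WT.

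**Figure D5:**
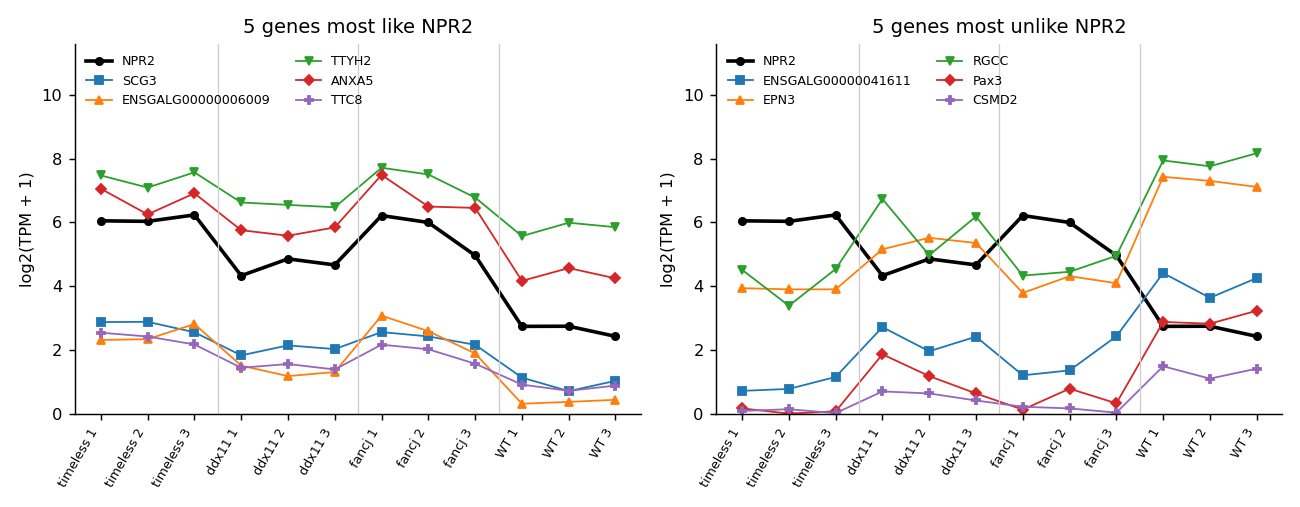
Level as log2(TPM + 1) in each of the 12 libraries of *timeless*, *ddx11*, *fancj* and WT, for *NPR2* (black) with the 5 genes most like it and the 5 most unlike it, where lines only join the points of a gene. In *SCG3*, as in *NPR2*, *ddx11* lies between the other mutants and WT, and *EPN3* runs from 12.8 to 44.83 TPM in mutants and from 137.44 to 171.64 TPM in WT.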

How the data were processed

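Poly(A) RNA from 12 DT40 cell populations was sequenced on a HiSeq4000. Reads were aligned by the authors to GRCg6a (Bowtie 2) and quantified with RSEM on Ensembl 96 gene models. Program versions and the use of strand are not given in the sources used here. Per gene, the deposited files hold an expected count (an estimate, not normalized), a TPM scaled by the authors to length and library, and a deposited FPKM that was not used.

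Expected counts were rounded, and edgeR 4.0.16 in R 4.3.3 fitted the 6 libraries of a mutant and WT with TMM factors. Genes averaging 1 TPM or more in either line entered, and those with a Benjamini-Hochberg adjusted p under 0.05 in the quasi-likelihood test were called altered. The SE is the absolute log2 fold change divided by the square root of F. The authors' own test was EBSeq. With 3 libraries against 3, an exact permutation test cannot go below p = 0.1, and none is given. Totals were 13406041 to 50160512 counts. Poisson intervals (95%) and the floor of 3 counts cover counting error only.

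The receptors, the pathway list and the markers were chosen with earlier results of these data known. Named genes are the receptors, altered list genes, the highest per role, other list genes described after their values were seen, 3 neighbours on each side, and the 5 genes most like and most unlike *NPR2*. Names and gene order came from RefSeq (GRCg7b), without coordinates.

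Replicate numbers are shared between lines. Same-numbered libraries labelled *fancj* and WT deviated together, with correlations of 0.110 to 0.212, over 0.1 in each of 3 pairs. This pairing is read from the data and not from a stated batch. In *timeless* (-0.03 to 0.14) and *ddx11* (-0.20 to 0.02) the correlations were not all over 0.1. Calls and p-values come from fits without a block, also for the libraries labelled *fancj*, unless the replicate block is named.

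Alternatives were DESeq2 1.42.0 (its test, and its size factors in edgeR), 1 TPM in both lines, no TPM filter, filterByExpr, all 12 libraries in 1 fit, a replicate block, other pseudocounts, and leaving out each library.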

Additional observations from a re-analysis of the deposited data

How the results depend on the processing

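*NPR2* kept its direction under every alternative run, which could hardly be otherwise, as each mutant library lay above each WT library. *NPR2* was chosen by its rise in *timeless* and the libraries labelled *fancj*, so its values there are a description only. It was tested in *ddx11* against the same WT libraries, so its p-values there are not independent of that choice. Its log2 fold change was 3.64 to 3.86 in *timeless*, 1.97 to 2.32 in *ddx11* (adjusted p of 0.00136 to 0.0195, edgeR) and 3.19 to 3.53 in the libraries labelled *fancj* when single libraries were left out, and it was 3.76, 2.11 (adjusted p = 0.0122) and 3.36 with the replicate block. The log2 ratio of mean TPM in *timeless* was 3.47 with a pseudocount of 1 TPM and 3.67 with 0.1 TPM. The list held 5 altered genes in *timeless*, but 2 with 1 TPM in both lines, 10 with DESeq2, and 1 to 5 without single libraries. *CNGA3* (0.51 TPM in *timeless*), *ADCY3* and *ADCY7* (0.763 and 0.357 TPM in WT) were under the stricter limit and not tested there. *LRMP* and *ABCC5* kept their calls with it (adjusted p of 0.0414 and 0.0468, edgeR). In *ddx11* the list held 0, but 1 with DESeq2, 1 with no TPM filter and 0 to 1 without single libraries, and the gene was *MME* each time. In the libraries labelled *fancj* it held 2, but 0 with 1 TPM in both lines, 1 with the replicate block, and 0 to 3 without single libraries. The log2 fold change of *ABCC5* in *ddx11* was 0.17, and -0.12 (without *ddx11* replicate 1) to 0.30 without single libraries. For *GUCY1B1* in the libraries labelled *fancj* it was 0.32, and -0.11 (without replicate 1) to 0.50. For *SUB1* in *ddx11* it was 0.09, and -0.074 (without *ddx11* replicate 2) to 0.23, with -0.025 without WT replicate 1. In *timeless*, *LRMP* and *ABCC5* lost their calls with the replicate block (adjusted p of 0.0526 and 0.0655, edgeR), and *OSTN* gained one (0.00106). Apart from the genes under the stricter limit, the cause was not tested for any of these.

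Over all genes, 955 were altered in *timeless*, and 611 with 1 TPM in both lines, 1499 with DESeq2 and 349 to 957 without single libraries. In *ddx11* 301 were altered, and 153 with 1 TPM in both lines, 547 with DESeq2, 158 with all 12 libraries, 142 with the block, 514 with no filter and 98 to 462 without single libraries. In the libraries labelled *fancj* 506 were altered, and 116 with 1 TPM in both lines, 1319 with DESeq2, 1040 with all 12 libraries and 45 to 864 without single libraries. No alternatives were run for *NPR1*, which was not matched, or *NPR3*, which was below 1 TPM.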
